A study of Mus musculus with 24 samples.

Results

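Fibroblasts of the blood vessel walls and meninges were picked out of a single-cell RNA-seq study of mouse motor cortex and dorsal striatum. A cell was taken as a fibroblast when it held at least 3 UMIs (unique molecular identifiers, each standing for 1 captured transcript) of Dcn, at least 2 UMIs summed over Col1a1, Col1a2 and Lum, at most 3 of Acta2 and at most 1 of Cldn5. Among 103715 cells with at least 1000 UMIs, at least 500 detected genes and at most 20% mitochondrial UMIs, 505 met this rule, 266 from cortex and 239 from striatum. Their levels of Dcn, Col1a1, Col1a2 and Lum were therefore set by the choice of cells and are given as a description. The choice also capped Acta2 and Cldn5.

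Motor cortex came from Fos-CreER::Ai9 mice and dorsal striatum from Arc-CreER::Ai9 mice, in which a tamoxifen-dependent recombinase under an activity-regulated promoter switches on a fluorescent reporter. The trained mice reached with a forelimb for 2 days (early) or 8 days (late), the control mice were untrained, and every group, controls included, carried Ai9 and received 4-hydroxytamoxifen 3 days before collection. Each pool joined the tissue of 2 mice, each region and stage had 2 pools, and each hemisphere of a pool was a library of its own. Region and driver line changed together and cannot be told apart. Sequencing batches held 1 region each, except that early replicate 2 of both regions shared a batch and so did late replicate 2. Region and batch are therefore told apart only in those batches. The labels give no age and name the mice of a pool by 1 number after M and 1 after F, and the 12 pools are the replicates.

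Fibroblasts of the brain lie in the pia and arachnoid and in the space around penetrating vessels, outside the smooth muscle and pericyte layer. They make fibrillar collagens, small leucine-rich proteoglycans and part of the basement membrane that seals the brain surface, and they carry transporters for solutes of the cerebrospinal fluid. Meningeal fibroblasts are also known as a source of retinoic acid, of the chemokine Cxcl12 and of bone morphogenetic proteins during development. In injured or inflamed brain they spread, deposit matrix and release chemokines.

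The 23 libraries analysed held 5260446 to 30470621 UMIs, and the right hemisphere of striatal control replicate 1 was not analysed here. Fibroblasts had a median of 2283 UMIs and 1269 genes per cell. The protocol names 2 kit versions without saying which library used which, and the barcodes that libraries share split the pools into 2 sets: set A held replicate 1 of late and control in each region, and set B the other 8 pools. No sequencing batch held pools of both sets, so barcode set and sequencing batch cannot be told apart. Fibroblasts of set A had a median of 1928 UMIs and those of set B 2492, and no early pool was in set A. None of the 505 fibroblast barcodes was a fibroblast in another library, 26 were listed in another library at all, and 9 of those in a library of the same sequencing batch. Cortical control replicate 1 gave 8 fibroblasts and was left out of the gene tests, which used the other 11 pools. Xist alone was seen in 225 fibroblasts, Y-linked transcripts alone in 154, both in 13 and neither in 113. Of the 13, 10 were among the 49 fibroblasts that also held markers of another cell type. The mix differed between pools, with 9 Xist-only to 28 Y-only cells in cortical control replicate 2, the only cortical control pool in the gene tests, and 33 to 14 in striatal late replicate 2. The part of this mix in the results was not tested.

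Dcn stood at exactly 3 UMIs in 28 kept cells, and 35 cells that met all other conditions were left out at 2 UMIs. The collagen and Lum sum stood at 2 in 47 kept cells, with 34 cells left out at 1 and 28 at 0. Acta2 removed 2 cells and Cldn5 another 2. Dcn, a proteoglycan that binds collagen fibrils, reached 5894 CPM (UMIs of the gene per 1000000 UMIs of the cells) in fibroblasts against 2.06 in all other passing cells together, and 28.3 in 2839 pericyte-like cells. Pool values of Dcn ran from 4500.2 to 6932 CPM in the 11 larger pools, and the 8-cell pool had 2268.

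Outside the rule, Apod, a lipid-binding lipocalin, stood at 21283 CPM against 21.1 in other cells. Apod had a UMI in 99.8% of fibroblasts, and its pool values ran from 16306 to 27744 in the 11 larger pools. The strongest contrast with the other cells was that of Itih2, a hyaluronan-binding matrix protein, at 293 against 0.0937 CPM. Next outside the rule came Slc22a6, an organic anion transporter, at 422 against 0.183, Fam180a at 609 against 0.323, and Inmt, a methyltransferase of indoleamines, at 842 against 0.538. Col13a1, a membrane-bound collagen, stood at 414 against 0.27, and Aldh1a2, which makes retinoic acid, at 200.2 against 0.19. These ratios come from the cells that the rule selected and carry no test.

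**Figure D1:**
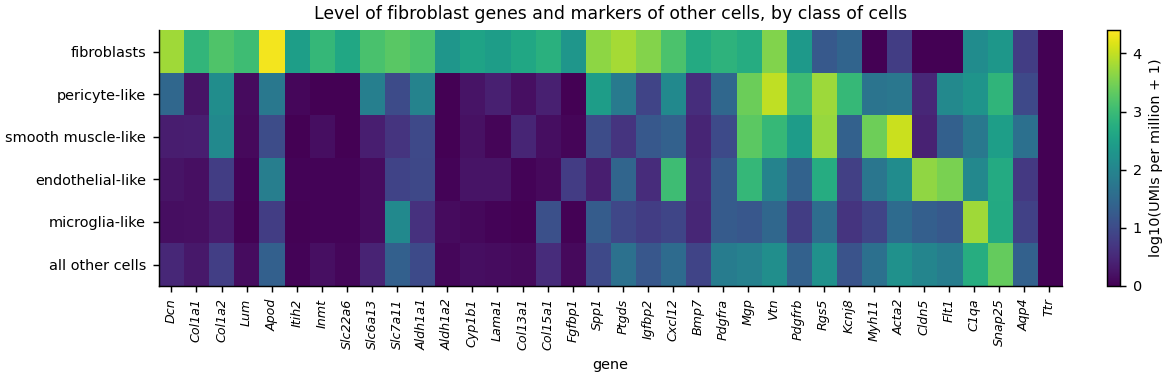
Level of 36 genes (columns) in fibroblasts and 5 other classes of cells (rows), as log10 of CPM plus 1 summed over all libraries. The first 23 genes reach at least 200.2 CPM in fibroblasts. The endothelial genes Cldn5, which the rule capped, and Flt1 and the smooth muscle gene Myh11 are at 0 there.

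Markers of the neighbouring vascular cells were uneven, some at or near 0 and others above their level in the other cells. Of 8 endothelial markers, Cldn5, which the rule capped at 1 UMI, had no UMI in fibroblasts. Flt1 and Ly6c1 had none either, which allows up to 2.23 CPM (counting error only), while Pltp reached 839 and Itm2a 371. Of 7 pericyte markers, 4 were above the other cells. The pericyte list summed to 2879 to 4909 CPM in cortical and 2929 to 4563 in striatal pools, against 403 in the other cells. Rgs5, Abcc9 and Higd1b stood at 15.6, 11.2 and 7.44 CPM, whereas Vtn, which pericytes also make, stood at 3743. Of 7 smooth muscle markers, Myh11 was at 0 and Acta2, which the rule capped, at 5.21, while Myl9 (223) and Tagln (176) were above the other cells (114 and 118). The sum of this list ran from 265 to 452 CPM in cortical and from 334 to 900.03 in striatal pools. Of 6 choroid plexus markers Ttr and Folr1 were at 0, and Kl, at 60.3, was the only one to reach 10 CPM. All 7 border macrophage markers were below the other cells, with Pf4 at 14.9 and Mrc1 at 7.44, but their sum reached 318 CPM in cortical early replicate 2 and 251 in striatal late replicate 1, against 114 in the other cells.

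Genes of neurons and microglia were present at levels below those of the other cells. All 10 neuron markers were detected, each below its level in the other cells, with Snap25 at 216 against 2289 CPM. Of 8 microglia markers, 7 were below the other cells, with C1qa at 136 against 544. The summed neuron list ran from 554 to 4633 CPM in cortical pools and from 569 to 6099 in striatal pools. The astrocyte list summed to 5108 to 6349 CPM in cortical and 2323 to 6312 in striatal pools, against 1468 in the other cells. Of its 8 markers, 2 were above the other cells. A combination of markers of another type was found in 49 fibroblasts (9.7%), with neuron markers in 18, astrocyte markers in 15 and microglia markers in 12. The astrocyte markers counted here included the 2 that were higher in fibroblasts than in the other cells. The 49 cells were left out in an alternative fit.

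Perivascular and pial genes were present more fully than those of arachnoid barrier and dura. All 6 pial genes and 7 of the 8 perivascular genes measured reached 10 CPM, led by Spp1 at 4475, Cxcl12 at 1426, S100a6 at 921, Cp at 875 and Inmt at 842. Of 6 arachnoid genes, 3 reached it: Ptgds at 6431, Aldh1a2 at 200.2 and Angptl2 at 76.7. Of 6 arachnoid barrier genes only Klf5 reached it, at 16.4, and Cdh1 had no UMI. Of 8 dural genes 3 reached it, with Mgp at 525, Pi16 at 16.4 and Fxyd5 at 16.4. Mgp is also a gene of mural cells, at 2533 CPM in pericyte-like and 1948 in smooth muscle-like cells.

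Of 11 fibrillar collagens 8 reached 10 CPM, and of 15 other collagens 8 did. Beside Col1a1 and Col1a2, the fibrillar collagen Col3a1 had 412 CPM and Col5a2 129, while Col2a1, Col11a2 and Col24a1 were under 2 CPM. Among other collagens Col13a1 (414), Col12a1 (387) and Col6a1 (209.9) led, and Col14a1 had no UMI. Of 21 basement membrane genes 17 reached 10 CPM, led by Col15a1 (615), Nid1 (551), Col4a1 (547) and Lamc1 (453). Lama1, the laminin chain of the pial membrane, stood at 284 against 1.4 in pericyte-like cells, and Col4a6 at 196 against 2.09, whereas Lama2 (194 against 204) and Nid1 (551 against 429.7) were at similar levels in both classes. Among the proteoglycans, Bgn (1387), Prelp (678), Ogn (273) and Fmod (269) followed Dcn and Lum. Fn1, fibronectin, was at 5.21 and Tnc at 1.49 CPM.

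Transport, retinoid and signalling genes were part of the profile as well. The cystine transporter Slc7a11 had 1875 CPM against 9.25 in pericyte-like cells, the GABA and taurine transporter Slc6a13 had 1367 against 76.9, and the organic anion transporters Slc22a8 and Slc22a6 had 641 and 422. Aldh1a1 (1436), Cyp1b1 (352) and Aldh1a2 (200.2) were high in the retinoid list, with Crabp1 and Crabp2 under 4 CPM. Igfbp2, an insulin-like growth factor binding protein, stood at 3875 against 6.98 in pericyte-like cells, and Bmp7 and Bmp6 at 480 and 262. Pdgfra, the receptor that marks fibroblasts, stood at 689 and Pdgfrb, that of mural cells, at 226 against 1026 in pericyte-like cells. Of 12 complement genes 3 reached 10 CPM, among them Serping1 at 657, and C3 and C4b were at 1.49 each. Among transcription factors of the meninges Zic1 (344), Foxc1 (324) and Tbx18 (276) were clear, while Six2 and Meox1 were under 5 and Tcf21 and Meox2 had no UMI.

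Fibroblasts were a small share of cells in every pool. The share was 0.507% ± 0.185 in cortex and 0.46% ± 0.147 in striatum (SD, n = 6 pools each), a difference of 0.0468 percentage points (exact permutation test, two-sided, p = 0.623). It was lowest in cortical control replicate 1, at 0.162% (95% Wilson interval 0.0821 to 0.319), and in striatal late replicate 1, at 0.205%. The other 10 pools lay between 0.444% and 0.725%. The 4 untrained pools averaged 0.413% ± 0.175, the 4 early pools 0.513% ± 0.0462 and the 4 late pools 0.524% ± 0.23 (SD). For the stage pairs early minus control, late minus control and late minus early, an exact permutation test within regions (two-sided) gave p of 0.833, 0.833 and 1 after adjustment over the 3 pairs. With 36 arrangements the smallest p this design allows is 0.0556 before adjustment, so no pair could have passed 0.05. Pools of barcode set A averaged 0.339% and those of set B 0.556%, and the part of the set in the share was not tested.

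**Figure D2:**
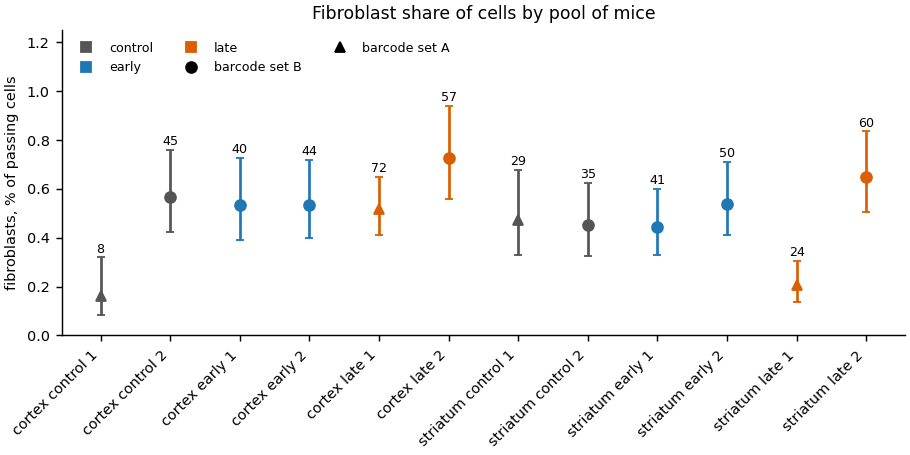
Share of passing cells that met the fibroblast rule in each of the 12 pools, in percent, with the 95% Wilson interval as bars and the number of fibroblasts above. Both pools under 0.21% belong to barcode set A (triangles), as do the pools at 0.471% and 0.517%.

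A limited set of genes was called between cortical and striatal fibroblasts. Of 3434 genes tested with edgeR's quasi-likelihood test, 61 passed an adjusted p of 0.05 (1.78%), 25 higher in cortex (0.728%) and 36 higher in striatum (1.05%). At an unadjusted p under 0.05 by the same test there were 440 genes (12.8%). The pools of the regions did not overlap for 54 genes (1.57% of those tested). Among the 25 higher in cortex, 14 were higher in fibroblasts than in the other cells of both regions. They included Ptgds, Msx1, Htra3 and Spp1. Among the 36 higher in striatum, 21 were above the other cells of both regions, among them Tgfbi, Mgp, Ecm1, Fgfbp1, Apoe and Fos. In the region where the gene was higher, which favours genes that differ, 15 and 23 were above the other cells and 10 and 13 at or below them. The median log2 difference over all genes was 0.03.

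The highest cortical level among these genes belonged to Ptgds, prostaglandin D2 synthase, an abundant protein of cerebrospinal fluid made by arachnoid cells. Its level in CPM was 7374 in the cortical control pool, 25253 and 4172 in the early pools, and 9668 and 7967 in the late pools. The 6 striatal pools ran from 44.4 through a median of 829.5 to 3851. The groups did not overlap, although the spread within striatum was wide. The log2 difference was 3.40 (SE 0.69, adjusted p = 0.0175, edgeR). With the sequencing batches as terms the difference in Ptgds was 1.86 (adjusted p = 0.112), and it was 2.85 (adjusted p = 0.0813) without cortical early replicate 1. The call for Ptgds was also lost without cortical control replicate 2 (2.93, adjusted p = 0.0604), without striatal late replicate 2 (3.41, adjusted p = 0.0542) and without the barcode set as a term (3.04, adjusted p = 0.0636). Ptgds was also higher in cortex in pericyte-like cells, at 104 against 0.886 CPM, and in smooth muscle-like cells, at 6.7 against 0.602, while endothelial-like cells had 10.3 in cortex and 50.9 in striatum. These other classes were not tested.

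Msx1, a homeobox transcription factor, was the most significant of the fibroblast genes higher in cortex. Its level was 223 CPM in the cortical control pool, 187 and 70.7 in early and 286 and 126 in late pools. The striatal pools had 7.07 to 41.9, with a median of 27, so all were below all cortical pools. The log2 difference was 2.98 (SE 0.4, adjusted p = 0.00061). Htra3, a secreted serine protease, ran from 95.4 to 171 in cortex and from 7.07 to 55.6 in striatum. Its log2 difference was 2.38 (SE 0.38, adjusted p = 0.00236).

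Spp1, the secreted matrix phosphoprotein osteopontin, was high in both regions and differed by a smaller step. The cortical pools had 4251, 5063, 8149, 6559 and 6854 CPM, and the striatal pools 2021 to 3618 with a median of 2679. The log2 difference was 1.06 (SE 0.19, adjusted p = 0.00464), with 4251 as the lowest cortical and 3618 as the highest striatal value. In pericyte-like cells Spp1 lay the other way, at 109.9 CPM in cortex and 550.5 in striatum, and this was not tested. Fbln2, Slc22a6, Postn and Il34 were higher in cortex by 1.19, 1.09, 1.23 and 0.94 on the log2 scale, and their pools overlapped. Of 22 alternatives, 7 had no call for Fbln2, 14 none for Slc22a6, 13 none for Postn and 13 none for Il34. For Slc22a6 leaving out any 1 of 9 of the 11 pools was enough, with adjusted p of 0.0501 to 0.162.

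Tgfbi, a secreted matrix protein induced by TGF-beta that binds collagen and integrins, had the smallest p of the comparison. The cortical pools had 23.8, 33.4, 70.7, 28.6 and 83.7 CPM. The striatal pools had 259.5 to 467, with a median of 312, so the lowest striatal pool was above the highest cortical pool. The log2 difference, cortex minus striatum, was -2.98 (SE 0.3, adjusted p = 2.83e-05), and it lay between -3.24 and -2.44 in all 22 alternatives, each with a call. Pericyte-like cells had 30.8 CPM in cortex and 103 in striatum. Microglia-like cells, at 48.4 and 34.2, and endothelial-like cells, at 2.27 and 1.34, lay the other way, and none of these was tested.

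Mgp, matrix Gla protein, an inhibitor of calcification that is also abundant in mural cells, was higher in striatal fibroblasts. The cortical pools had 39.7, 134, 256, 199.98 and 268 CPM, against 501 to 1988 in striatum, with a median of 834. The log2 difference was -2.59 (SE 0.38, adjusted p = 0.00156), and -1.55 (adjusted p = 0.0749) with the sequencing batches as terms. In pericyte-like cells Mgp stood at 2737 CPM in cortex and 2220.1 in striatum, and in smooth muscle-like cells at 2113 and 1785, the opposite order, while endothelial-like cells had 768 and 975, the same order as fibroblasts. Igfbp7 was also higher in striatal fibroblasts, at 559.9 ± 128 (SD, n = 6) against 285 ± 147 CPM (n = 5), with overlapping pools. The other classes had more Igfbp7 in cortex, which was not tested. Pericyte-like cells had 3596 in cortex and 3181 in striatum, and smooth muscle-like cells 4336 and 3729. Endothelial-like cells had 2116 and 1764, and microglia-like cells 40.6 and 32.3. The call for Igfbp7 was lost in 12 of 22 alternatives.

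Other secreted and metabolic genes were higher in striatum. Fgfbp1, a carrier that releases fibroblast growth factors from the matrix, had 35.4 to 201 CPM in cortical pools and 276 to 389 in striatal pools. Its log2 difference was -1.86 (SE 0.32, adjusted p = 0.00423), and the call was lost with the sequencing batches as terms (-1.64, adjusted p = 0.155). Ecm1, an extracellular matrix protein, had 33.5 to 106 against 111 to 283, and its call held in all 22 alternatives. In pericyte-like cells Ecm1 stood at 54.4 CPM in cortex and 90.8 in striatum, in the same order, and the other 3 classes also had slightly more in striatum. Apoe, the lipid carrier, had 5586 to 8509 in cortex and 10548 to 13982 in striatum. Its log2 difference was -0.84 (SE 0.17, adjusted p = 0.0175), and the call was lost in 6 of 22 alternatives. Apoe was higher in striatum in the other classes as well, at 521 against 625.3 CPM in pericyte-like, 187 against 755 in smooth muscle-like, 1378 against 1754 in endothelial-like and 3326 against 3990.4 in microglia-like cells. Aldh1a1, a retinaldehyde dehydrogenase, had a log2 difference of -0.89 (SE 0.19, adjusted p = 0.0193) with overlapping pools, and lost its call in 5 of 22. Rabepk had 17.7 to 39.7 against 74.2 to 154, and the non-coding Gm26802 had 8.37 to 111 against 169.6 to 246. Without striatal late replicate 2 both lost their call (Rabepk -1.91, adjusted p = 0.064, and Gm26802 -1.67, adjusted p = 0.0529), and Rabepk also with the sequencing batches as terms (-2.45, adjusted p = 0.056).

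**Figure D3:**
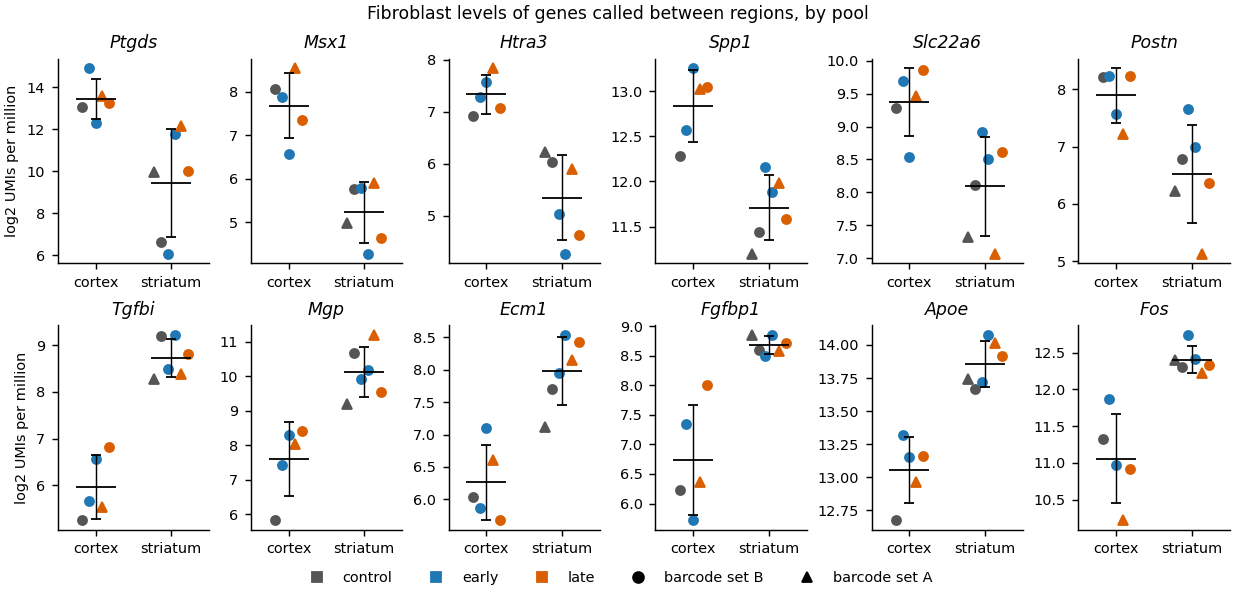
Fibroblast level of 12 genes called between regions, as log2 CPM (edgeR, prior count 1) on axes that do not start at 0, 1 point per pool, coloured by stage, with the mean and SD as black bars (5 cortical and 6 striatal pools). The upper row is higher in cortex and the lower row in striatum, and the pools of Slc22a6 and Postn overlap.

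Fos, the immediate early transcription factor, was called, as 1 of 20 immediate early genes tested, where 1.78% of all genes were called. The cortical pools had 2177, 3112, 1662, 931 and 1556 CPM and the striatal pools 4019 to 5396, with a median of 4175. The log2 difference was -1.34 (SE 0.21, adjusted p = 0.00236), with a call in all 22 alternatives. Fosb, Junb, Jund and Zfp36 differed in the same direction by less, and none of them was called. Fosb differed by -0.38 (adjusted p = 0.46, edgeR), Junb by -0.44 (0.284), Jund by -0.04 (0.975) and Zfp36 by -0.87 (0.08). Of the 20 genes tested, 8 had positive differences, and the median over the list was -0.16, against 0.03 over all genes. Fos was also lower in cortex in the other classes, at 4934 against 8889.7 CPM in pericyte-like cells, 1619 against 3256 in smooth muscle-like, 2082 against 3975 in endothelial-like and 484 against 1127 in microglia-like cells. In these mice the recombinase was driven by Fos in cortex and by Arc in striatum, so the driver line and the region cannot be told apart for this gene. Arc had 12 UMIs in all fibroblasts.

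Grouped by role, 5 of the called list members were secreted matrix proteins outside the collagens. Of 13 elastic fibre and matrix glycoprotein genes tested, 3 were higher in cortex (Spp1, Fbln2, Postn) and 2 in striatum (Tgfbi, Mgp), with a list median of 0.23. None of 14 basement membrane genes, 8 other collagens, 8 collagen processing genes, 5 proteoglycans, 12 growth factor receptors or 10 meningeal transcription factors was called. Their medians ran from -0.25 for the proteoglycans to 0.29 for collagen processing. Of 10 solute transporters 1 was called (Slc22a6), of 6 retinoid genes 1 (Aldh1a1), of 12 growth factors and binding proteins 1 (Igfbp7) and of 10 chemokines 1 (Il34). Over all genes 1.78% were called, and nothing particular to these lists is read from their counts. The chemokine median was 0.5, with Ccl2 at 1.35 (adjusted p = 0.295). Microglia markers moved the same way: 5 of 5 tested had positive differences with a median of 1.40 and none called. The sum over the 8 markers, none of them at 0, ran from 366 to 1824 CPM in cortical and from 74.2 to 862 in striatal pools. Their part in the differences between regions was not tested.

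Genes of neurons and immune cells were among the calls as well. Cd83 and Cd14, both known from microglia and other myeloid cells, were higher in cortical fibroblasts by 2.56 and 3.13 on the log2 scale, and stood below the other cells of cortex. Cck, a neuropeptide of cortical neurons, had 28.6 to 287 CPM in cortical fibroblasts and 0 to 8.98 in striatal ones. It was below the other cells of cortex, where Cck stood at 1739. Slc17a7 and Ppp1r1b, the glutamate transporter of cortical neurons and a signalling protein of spiny neurons, were higher in cortex and in striatum respectively, and below the other cells there, at 734 and 1215 CPM in the other cells. The call was lost for Slc17a7 in 6 of 18 alternatives (2.37 to 6.53 over all) and for Ppp1r1b in 4 of 21 (-4.69 to -2.09). With the sequencing batches as terms Slc17a7 had 2.37 (adjusted p = 0.694) and Ppp1r1b -2.90 (adjusted p = 0.144). Leaving out cortical late replicate 1 ended both calls (adjusted p = 0.0512 and 0.0664), and leaving out cortical late replicate 2, striatal control replicate 2 or striatal early replicate 2 ended that of Slc17a7 (adjusted p = 0.0507 to 0.0557). Cck had a UMI in 6.14% of fibroblasts, Ppp1r1b in 3.96% and Slc17a7 in 2.38%. What part RNA of other cells plays in these differences was not tested.

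The count of calls between regions moved with the samples and terms used. Without the 49 cells that held other markers it was 63, and of the 44 earlier calls that could still be tested 39 were called again. Within barcode set B alone it was 51, of which 32 were shared. With sequencing batches as terms it was 21 (15 shared), with 2 residual degrees of freedom. That fit compares the regions within batches only through replicate 2 of early and of late. The count was 30 without cortical control replicate 2, 33 without cortical early replicate 1, and 35 and 25 without cortical late replicate 1 and 2. It was 40 and 34 without striatal early replicate 1 and 2, and 28 without striatal late replicate 2. Tgfbi, Msx1, Htra3, Ecm1, Spp1, Fos and Cck kept their call in every alternative in which they were tested.

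Start regions of 4 genes are shown because 2 of them (Ptgds, Msx1) were higher in cortical and 2 (Tgfbi, Fgfbp1) in striatal fibroblasts. They are the 250 bases before the annotated start in RefSeq on GRCm38.p6, written 5′ to 3′ on the gene's strand: chr2:25469750-25469999 (minus) for Ptgds, chr5:37824586-37824835 (minus) for Msx1, chr13:56609336-56609585 (plus) for Tgfbi and chr5:43981800-43982049 (minus) for Fgfbp1. Capitals mark the letters TGANTCA (the core bound by Fos and Jun proteins), TATAAA and GGGCGG on either strand.
Ptgds: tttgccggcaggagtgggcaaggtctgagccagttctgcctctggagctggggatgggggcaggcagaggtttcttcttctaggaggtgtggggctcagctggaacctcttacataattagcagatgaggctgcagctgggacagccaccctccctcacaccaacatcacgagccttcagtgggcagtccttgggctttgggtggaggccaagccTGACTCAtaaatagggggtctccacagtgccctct
Msx1: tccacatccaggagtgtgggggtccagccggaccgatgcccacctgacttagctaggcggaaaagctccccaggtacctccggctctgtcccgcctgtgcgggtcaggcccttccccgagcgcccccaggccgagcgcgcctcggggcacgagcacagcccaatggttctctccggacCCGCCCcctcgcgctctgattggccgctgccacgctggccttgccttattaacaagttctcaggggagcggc
Tgfbi: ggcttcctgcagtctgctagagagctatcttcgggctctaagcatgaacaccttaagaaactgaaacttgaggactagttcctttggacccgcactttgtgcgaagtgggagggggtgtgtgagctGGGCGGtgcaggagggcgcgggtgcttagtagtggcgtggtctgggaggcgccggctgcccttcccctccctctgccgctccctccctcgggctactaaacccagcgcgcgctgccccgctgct
Fgfbp1: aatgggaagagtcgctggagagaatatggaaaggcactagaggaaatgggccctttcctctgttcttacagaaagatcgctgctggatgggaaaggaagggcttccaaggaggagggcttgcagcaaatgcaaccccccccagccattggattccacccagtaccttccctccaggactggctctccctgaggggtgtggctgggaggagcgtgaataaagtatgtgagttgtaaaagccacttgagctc
The Ptgds window held TGANTCA, starting 35 bases before the start, a motif that 6.75% of all 32851 windows of this length hold. The Msx1 and Tgfbi windows each held GGGCGG, 72 and 124 bases before the start, as do 32.7% of all windows. No window held TATAAA, which 12.4% of all windows hold, and the Fgfbp1 window held none of the 3 motifs. GC content was 58.4% for Ptgds, 68% for Msx1, 62.4% for Tgfbi and 53.6% for Fgfbp1. These matches are letters in a window and no measure of binding.

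Over both regions together, the 51 fibroblasts richest in a gene held 88.8% of all Ptgds UMIs and 90.7% of all Mgp UMIs, against 38.9% for Spp1 and 28.4% for Dcn. At least 10 Ptgds UMIs were found in 87 fibroblasts, 79 of 266 cortical and 8 of 239 striatal cells. Their share ran from 20.5% to 37.5% in cortical pools and from 0% to 6.9% in striatal pools. In these 87 cells Gjb6, a gap junction protein, stood at 188 against 61.9 CPM in the other fibroblasts, and Slc22a6 at 650 against 371. Both genes were also called higher in cortex, and the cells were chosen by their values, so no test applies.

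Mgp was concentrated in a set of mostly striatal cells. At least 3 Mgp UMIs were found in 55 fibroblasts, 46 striatal and 9 cortical, at 12% to 37.5% of the cells of striatal pools and 0% to 6.94% of cortical ones. In them Mfap5 stood at 181 against 9.43 CPM, Cpxm2 at 378 against 30.0, and Igfbp7 at 938 against 314, while Slc6a13 stood at 684 against 1471. Their median was 2884 UMIs, against 2210 in the other fibroblasts. The 7 smooth muscle markers summed to 621 against 386 CPM, with 6 of them higher in these cells, and Acta2 had 28.2 against 1.71 with a UMI in 3.64% of them. The 7 pericyte markers summed to 2819 against 4099, with 5 of them higher. Striatal late replicate 1 had both the highest share of these cells and the highest smooth muscle sum of the 11 pools. What part mural RNA plays in this set was not tested. Of these cells 13 also held Mfap5, a microfibril protein, 12 of them striatal, and in those Pi16, found in 23.1% of them, had 157 against 10.8 CPM and Igfbp6 353 against 20.1. Their median was 3975 UMIs, against 2230.5 in the other fibroblasts.

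Cells rich in chemokines were found in both regions. At least 3 UMIs summed over Ccl2, Ccl7 and Cxcl1 were found in 222 fibroblasts, in 27.5% to 65.9% of the cells of cortical pools and 19.5% to 70.8% of striatal pools. In these cells Nfkbia, the inhibitor induced by NF-kappaB, stood at 2024 against 570 CPM, Irf1 at 144 against 26.7 and Nfkb1 at 366 against 132. Ccl2 itself ran from 180.3 to 4205 CPM in the 5 larger cortical pools and from 355 to 2428 in striatum, so pools of the same region and stage differed widely. Early cortical replicates 1 and 2, for example, had 180.3 and 3208.

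**Figure D4:**
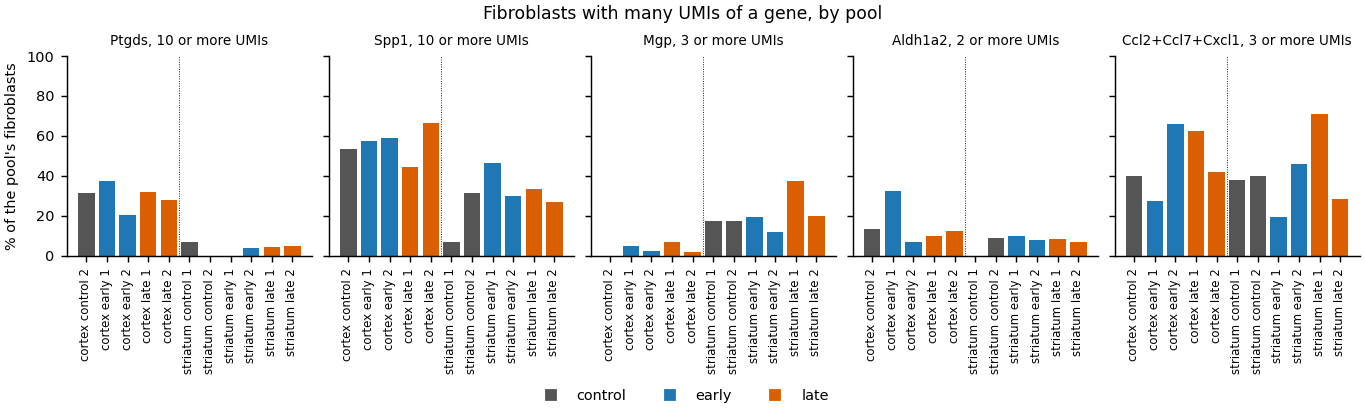
Percent of the fibroblasts of each of the 11 larger pools (bars, coloured by stage) that held at least the stated number of UMIs of a gene or gene sum, with cortex left and striatum right of the dotted line. Ptgds-rich cells make 20.5% to 37.5% of cortical and at most 6.9% of striatal pools, Mgp-rich cells at least 12% of striatal pools, and chemokine-rich cells vary within both regions.

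Few genes were called by training stage. Averaged over regions, 1 of 3434 genes was called between early and control (0.0291%) and 1 between late and control (0.0291%), and in both it was Nrgn, lower after training. Between late and early no gene was called (0%), with 104 by edgeR at an unadjusted p under 0.05 (3.03%), 1 call by DESeq2, and pools that did not overlap for 2.74% of genes. At an unadjusted p under 0.05 there were 202 genes for early (5.88%) and 198 for late against control (5.77%). Both comparisons share the control pools.

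Nrgn encodes neurogranin, a postsynaptic protein of neurons. Its level was 1605 CPM in the cortical control pool and 2021 and 440.2 in the striatal ones. The early pools had 354, 106, 53.3 and 77.7, and the late pools 85.7, 117, 314 and 74.3, so every trained pool was below every control pool, a lack of overlap that 7.8% of all genes had for early and 3.41% for late. The log2 difference was -2.76 (SE 0.47, adjusted p = 0.0432) for early and -3.59 (SE 0.47, adjusted p = 0.0017) for late. In the other cells Nrgn stood at 2906 CPM, against 388 in fibroblasts, and 95.6% of its UMIs in fibroblasts lay in 51 cells. Without the 49 cells with markers of another type the differences were -1.08 (adjusted p = 0.923) and -1.14 (adjusted p = 0.954). The early call was also lost without any 1 of 5 pools: cortical control replicate 2 (-2.32, adjusted p = 0.996), striatal early replicate 1 (-2.59, 0.336), cortical early replicate 2 (-2.56, 0.118), striatal early replicate 2 (-2.66, 0.0766) or cortical late replicate 2 (-2.74, 0.0733). It was lost as well with cells thinned to 1000 UMIs (-1.68, adjusted p = 0.195) and without the barcode set as a term (-3.23, 0.0621). The late call was lost without cortical control replicate 2 (-3.29, adjusted p = 0.0615) or striatal control replicate 1 (-3.19, 0.0791). Of 9 neuron markers tested, 7 were lower in early and 9 in late than in control pools.

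Matrix, transport and chemokine genes had no call by stage. Col3a1 differed by 0.92 (SE 0.36, adjusted p = 0.735) in early against control and 0.21 (SE 0.39) in late. Spp1 differed by 0.69 (SE 0.24, adjusted p = 0.597) and 0.59 (SE 0.24, adjusted p = 0.816), Ptgds by 1.87 (SE 0.85) and 1.14 (SE 0.82), and Ccl2 by 0.37 (SE 0.72) and 0.54 (SE 0.8). Aldh1a1 differed by 0.25 and 0.28, each with an SE of 0.24, and Fos by 0.17 (SE 0.27) and -0.31 (SE 0.26).

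Basement membrane genes had positive but uncalled differences. Of 14 tested, 13 were positive for early against control with a median of 0.43, and 14 for late with a median of 0.37, while all genes together had medians of 0.02 and 0.02. Lamc3 differed by 0.77 (SE 0.29, adjusted p = 0.689) and 0.87 (SE 0.31, adjusted p = 0.752). The summed list was 4688, 1409 and 4528 CPM in the control pools, 5718.6 to 6116 in the early pools, and 2908, 5749, 1486 and 4855 in the late pools. The 3 lowest values, 1409, 1486 and 2908, were the 3 pools of barcode set A in the fit. The list thus moved with the barcode set, which was a term in the fit and cannot be told apart from sequencing batch. The part of the set or batch in these differences was not tested further. Other lists were lower in set A as well. Fibrillar collagens, Col1a1 and Col1a2 included, summed to 1277 to 1954 CPM in set A and 2821 to 4517 in set B. Solute transporters summed to 3600 to 5360 in set A and 6628 to 8374 in set B. The sums of chemokines and of growth factors overlapped between the sets.

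**Figure D5:**
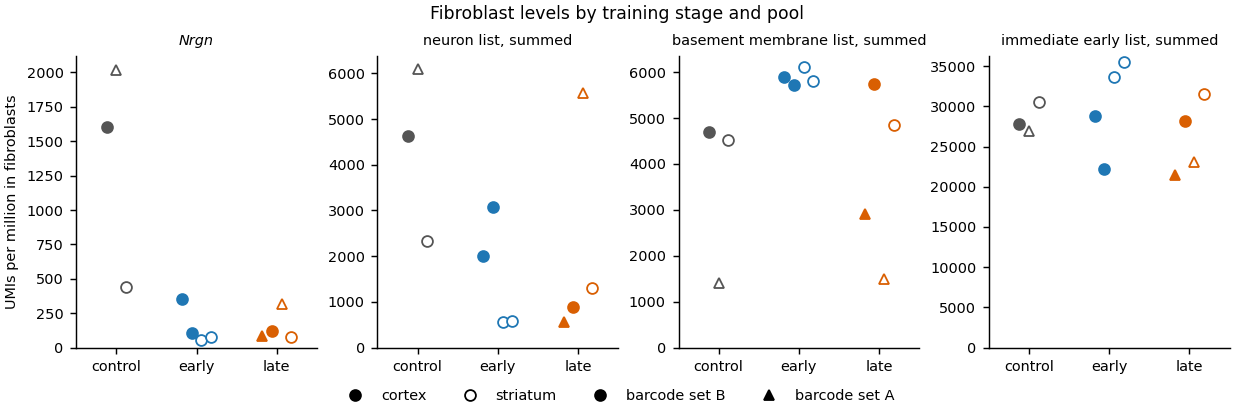
Fibroblast levels by stage in CPM (axes from 0), 1 point per pool (filled cortex, open striatum, triangles barcode set A), for Nrgn and the sums of 3 gene lists. Nrgn is at least 440.2 in the control pools and at most 354 in trained ones, and the 3 lowest basement membrane sums are triangles.

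The stage effect was compared between regions with 1 cortical control pool, so that this arm had no spread of its own and took that of the remaining pools. For early against control, 2 of 4461 genes passed (0.0448%; 174 at an unadjusted p under 0.05, 3.9%), the microglial complement genes C1qb (log2 difference of differences 6.78, SE 1.07, adjusted p = 0.00457) and C1qa (6.19, SE 1.19, adjusted p = 0.0456). C1qb stood at 95.4 in the cortical control pool and 361 and 283 in the early ones, against 18.5 and 198 and then 8.89 and 0 in striatum. For late against control 3 passed (0.0672%; 291 at an unadjusted p under 0.05, 6.52%): CT010467.1 and mt-Rnr1 higher, and Atp1b1 lower (0.0224%). mt-Rnr1, the small mitochondrial ribosomal RNA, had 217 and 188 in the late pools of set A and 4987 and 3597 in those of set B. It thus moved with the barcode set, which was a term in the fit and whose part was not tested further. Without the 49 cells with other markers no gene passed for early, and C1qa and C1qb were not among the genes tested. Atp1b1, a sodium pump subunit of neurons, had a difference of -4.59 (adjusted p = 0.0369), which was 0.8 (adjusted p = 0.952) with every cell thinned to 1000 UMIs.

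The hemispheres of trained mice were compared within pools, since the reach uses 1 forelimb. The contralateral libraries held 181 fibroblasts and the ipsilateral ones 207, over 8 pools each. None of 1939 genes was called (0%), with 120 at an unadjusted p under 0.05 by edgeR (6.19%) and no call by DESeq2. The smallest p was that of the neuronal gene Syt1 (-2.06, SE 0.42, adjusted p = 0.0749), followed by Igfbp7 (0.8, SE 0.2, adjusted p = 0.314). Apod differed by 0.2 (SE 0.1), Spp1 by 0.31 (SE 0.14) and Ptgds by 0.94 (SE 0.61). None of 14 basement membrane genes or 20 immediate early genes was called, with medians of 0.09 and -0.09 against 0.01 over all genes.

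The wpre feature, a viral element in the tail of the Ai9 reporter transcript, was found in fibroblasts of every pool. It had 344 UMIs in 41% of fibroblasts, against 7.58% of 17564 microglia-like cells, with median depths of 2283 and 1969 UMIs. Its level was 256 CPM in fibroblasts, 196 in pericyte-like, 185 in smooth muscle-like, 181 in endothelial-like and 46.3 in microglia-like cells. The untrained pools had 324 (from the 8-cell pool), 246, 167 and 243, and the trained pools 142 to 468. It was not called between regions (log2 difference 0.01, SE 0.24) or between early and control (0.58, SE 0.31, adjusted p = 0.905). The tdtomato feature had a UMI in 3 fibroblasts, all striatal.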

How the data were processed

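Single-cell 3' libraries of papain-dissociated tissue were sequenced, and the deposited matrices hold UMI counts per gene and barcode, with features for the reporter. The authors made the matrices with Cell Ranger 3.1.0 on GRCm38 per the submitters' processing notes, while the matrix headers give software version 3.0.2. Levels (CPM) are UMIs of a gene per 1000000 UMIs of the summed fibroblasts. Counts were summed per pool of 2 mice (at least 10 fibroblasts, 11 pools). They were fitted with edgeR 4.0.16 (TMM, filterByExpr, quasi-likelihood F test) on region, stage and barcode set. Benjamini-Hochberg adjustment ran over all genes in the fit, and a call was made under 0.05. Genes of the rule stayed in the fit and in the adjustment but were left out of the counts of genes tested and called. Region by stage was an added term. Hemispheres were fitted with the pool as block. Shares were compared by exact permutation tests. The scripts were tested on simulated data. Among genes above 6 log2 CPM, changes of 1 log2 step were recovered in 7.5% for late against control and 48.5% between regions. For changes of 2 log2 steps these were 82% and 92%. False calls among the unchanged genes were 1 for late against control and 3 between regions at 1 step. At 2 steps they were 6 and 16. Possible doublets were cells with at least 3 markers of 1 other type at 2 or more UMIs each, leaving out markers on the meningeal lists; no caller was run. Alternatives were DESeq2 1.42.0, other size factors, no count filter, stricter cells (2000 UMIs, 1000 genes, 10% mitochondrial), a stricter rule (Dcn at 5, collagens and Lum at 4), at least 20 fibroblasts per pool (which removed no pool and is not counted among the alternatives of a gene), thinning to 1000 UMIs, no barcode term, sequencing batches as terms, no possible doublets, and leaving out each pool. Set B alone and all 12 pools were added after seeing the data. Set B alone kept only replicate 2 of control and of late in each region.

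The members and gene lists were chosen with earlier results of these data known. Genes were named by this rule: the genes of the rule, the 25 with the highest ratio to other cells (above 50 CPM), at most 15 called genes per comparison (first those without overlap), called list members and up to 6 members per list with the highest level, and the reporter features. Genes described in cell subsets, list members at low levels and uncalled genes given by comparison were picked after their values were seen. Intervals cover counting error only, and p-values measure the spread between pools. Some genes that this rule would name are not reported here.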

Additional observations from a re-analysis of the deposited data

Results flagged for a closer look

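Among 46 sets of pools examined, 6 had a pool far from the others. The sets were levels of genes called between regions and the fibroblast shares, so no chance rate is set beside this count. On the log2 scale these were Fos at 12.74 in striatal early replicate 1, Ppp1r1b at 6.93 in cortical control replicate 2, Fbln2 at 7.97 in cortical late replicate 1, Slc17a7 at 4.13 in striatal late replicate 2 (the only striatal pool with a UMI of it), and Il34 at 7.85 in striatal control replicate 2. The fibroblast share of cortical control replicate 1, 0.162%, was the sixth. For Slc17a7 the other striatal pools were tied at 3.35, the value without a UMI, so any UMI in 1 pool would have flagged it.

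The test of the difference in stage effect between regions passed for 5 genes, with 1 cortical control pool, whose spread was taken from the other groups. For early against control these were C1qb (6.78) and C1qa (6.19), and for late against control CT010467.1 (6.42), mt-Rnr1 (3.82) and Atp1b1 (-4.59). The call held in 13 of 18 alternatives for C1qb and in 8 of 18 for C1qa. For CT010467.1 and mt-Rnr1 it held in 14 of 19 each, and for Atp1b1 in 8 of 18. Without cortical late replicate 2, which left 1 late pool in cortex, none of the late calls was kept. Without striatal control replicate 2, C1qb had 4.62 (adjusted p = 0.988, edgeR) and C1qa 1.39 (adjusted p = 1). Without the barcode set as a term none of the 5 was called.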

How the results depend on the processing

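The direction of the difference between regions held for every earlier call in each alternative in which it was tested. The number called between regions was 148 without the count filter, 21 without the barcode set as a term, 34 with cells thinned to 1000 UMIs, 21 with sequencing batches as terms, and 25 to 65 without single pools. For early against control the number called was 35 without the filter, 0 without the barcode term, 12 with stricter cells, 10 with the stricter rule, 2 thinned, 7 with batches, 4 in set B and 0 to 8 without single pools. For late against control it was 32 without the filter, 3 with stricter cells, 7 with the stricter rule, 0 without possible doublets, 2 thinned, 3 with batches, 4 in set B and 0 to 16 without single pools. For late against early it was 9 without the filter, 1 by DESeq2, 3 with stricter cells, 3 with batches and 0 to 2 without single pools. For region by stage, early, it was 1 with RLE size factors, 11 without the filter, 0 by DESeq2, without the barcode term, with the stricter rule, without possible doublets or thinned, 5 with stricter cells, 5 in set B and 0 to 5 without single pools. For region by stage, late, it was 15 without the filter, 0 without the barcode term, 5 with the stricter rule, 5 in set B and 2 to 10 without single pools. Between hemispheres it was 6 without the filter and 0 to 2 without single pools. With no replicate block, the unpaired fit of the hemispheres had 0 calls, with 66 genes at an unadjusted p under 0.05. The share of late minus early pools was -0.00635 points with stricter cells, -0.0758 with the stricter rule, -0.0363 thinned, -0.00862 without possible doublets, and -0.0557 to 0.118 without single pools. Cortex minus striatum was -0.00416 to 0.116 points without single pools, early minus control 0.0166 to 0.152 and late minus control 0.0278 to 0.218. Early minus control, 0.1 points in the reported setting, was 0.178 with stricter cells and 0.183 with the stricter rule. Late minus control, 0.111 in the reported setting, was 0.171 and 0.107. Atp1b1 turned to 0.80 when thinned. The causes of these moves were not tested. The gene tests between regions and stages rest on 24 to 72 fibroblasts per pool and those between hemispheres on 11 to 41 per library, and genes under the count filter were tested only without it.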
